A study of Mus musculus with 4 samples.

Results

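The matrix metalloproteinases Mmp2, Mmp3, Mmp9, Mmp10, Mmp11, Mmp13 and Mmp14, and the tissue inhibitors of metalloproteinases Timp1, Timp2 and Timp3, were examined in mouse embryonic fibroblasts that lack Men1. Men1 encodes menin, a nuclear scaffold protein. The 10 genes of the 8251 named on the array were represented by 15 of the 12422 probe sets tested, taken as every probe set whose platform annotation gave that symbol and no other. RNA came from Men1 knockout fibroblasts of a mixed FVB;129Sv background, and all samples carried the knockout. Cells complemented with Men1 were measured on 2 arrays, and cells complemented with vector on the other 2. These groups are called Men1 and vector below, and the series compared them to find genes that menin regulates. Culture was the same for all, at 10% serum, with seeding to 70% density 24 h before harvest. The labels do not give the vector, the level of the introduced Men1 or the number of cell lines. The labels do not state whether replicate arrays hold separate cultures, and the spread behind each p-value may therefore be technical.

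Matrix metalloproteinases are zinc enzymes that cut the proteins of the extracellular matrix and are made as inactive precursors. TIMPs bind the active site of the enzymes and block it, so that matrix turnover depends on the balance of the enzymes and their inhibitors. In fibroblasts the membrane-bound enzyme MMP14 activates the precursor of MMP2 at the cell surface, with TIMP2 serving as the bridge between them. The genes of collagenases and stromelysins, among them Mmp13, Mmp3 and Mmp10, lie side by side, and AP-1 factors are known to act through sites close to their starts.

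The stretches before the starts of Mmp13, Mmp3 and Mmp10 are shown because these members share short motifs there, and that of Timp1 because it had the largest difference between groups among the members read clearly. Each is 120 bases and ends at the base before the annotated start, from RefSeq on GRCm38.p6, 5′ to 3′ on the strand of the gene. Capitals mark TGANTCA, the AP-1 motif, and TATAAA, the TATA motif. The positions are chr9:7272394-7272513 (plus strand) for Mmp13, chr9:7445702-7445821 (plus strand) for Mmp3, chr9:7502222-7502341 (plus strand) for Mmp10 and chrX:20870046-20870165 (plus strand) for Timp1.
Mmp13: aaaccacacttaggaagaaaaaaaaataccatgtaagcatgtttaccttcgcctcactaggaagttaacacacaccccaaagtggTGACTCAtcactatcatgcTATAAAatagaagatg
Mmp3: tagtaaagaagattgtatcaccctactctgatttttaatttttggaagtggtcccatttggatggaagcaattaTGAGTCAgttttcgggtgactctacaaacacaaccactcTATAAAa
Mmp10: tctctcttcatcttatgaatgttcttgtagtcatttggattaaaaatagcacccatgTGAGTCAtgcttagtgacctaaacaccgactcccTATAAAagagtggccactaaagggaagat
Timp1: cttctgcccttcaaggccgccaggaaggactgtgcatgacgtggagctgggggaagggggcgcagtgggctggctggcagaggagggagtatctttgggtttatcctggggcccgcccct

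Both motifs were searched on both strands over the 250 bases before the start, and they cannot overlap each other. TGANTCA reads the same on either strand. RefSeq promoters were found for 8 of the 10 genes. Those of Mmp2 and Mmp9 were not available, so their motifs are not known here. Mmp13, Mmp3 and Mmp10 held both motifs. TGANTCA began 35 bases before the start in Mmp13, 46 in Mmp3 and 63 in Mmp10, and TATAAA began 16, 7 and 29 bases before it. Timp1, Timp2, Timp3, Mmp11 and Mmp14 held neither. Among all 32851 promoters of the table, 6.75% held TGANTCA, 12.4% held TATAAA and 1.21% held both. Both were held by 2.31% of the 1469 promoters of genes that the array did not read above its controls, and by 0.503% of the 5770 promoters of genes read above them on all arrays. A match describes letters only, and binding was not measured here.

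Signals are the authors' MAS5 intensities on a linear scale, in arbitrary units. They were set beside 19 control probe sets for bacterial and yeast RNA, which served as a measure of background. The highest of these read 25.9 (Men1 replicate 1), 27.4 (Men1 replicate 2), 15.9 (vector replicate 1) and 20.0 (vector replicate 2). Control level means that neither array of a group exceeded its own highest control, and such a signal is only a bound. The cutoff was higher on both Men1 arrays than on both vector arrays, so equal signals can be at control level in Men1 alone. Of all probe sets, 58.1% were above the highest control on all 4 arrays and 25.5% on none. The trimmed mean signal was 150.07 to 150.08 throughout, which is the mark of a scaling of whole arrays. The probe set of Men1 itself read 18.8, 22.5, 18.1 and 29.5 in the order given above. Both Men1 arrays were below their highest control there and both vector arrays above theirs, with means of 20.65 and 23.8. The signal was thus not higher with Men1, and the groups overlapped. The place of this probe set in the gene is not known here, so these values do not check the labels.

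Of the 15 probe sets, 5 were above the highest control on all 4 arrays, 1 each for Mmp11, Mmp14, Timp1, Timp2 and Timp3. A further 2 were above it on 1 array each, and 8 on none, where signals lay between 0.7 and 22.2. The proteases read clearly were thus a secreted enzyme of unusual substrate range, MMP11, and the membrane-bound MMP14. All 3 inhibitors were read clearly.

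**Figure D1:**
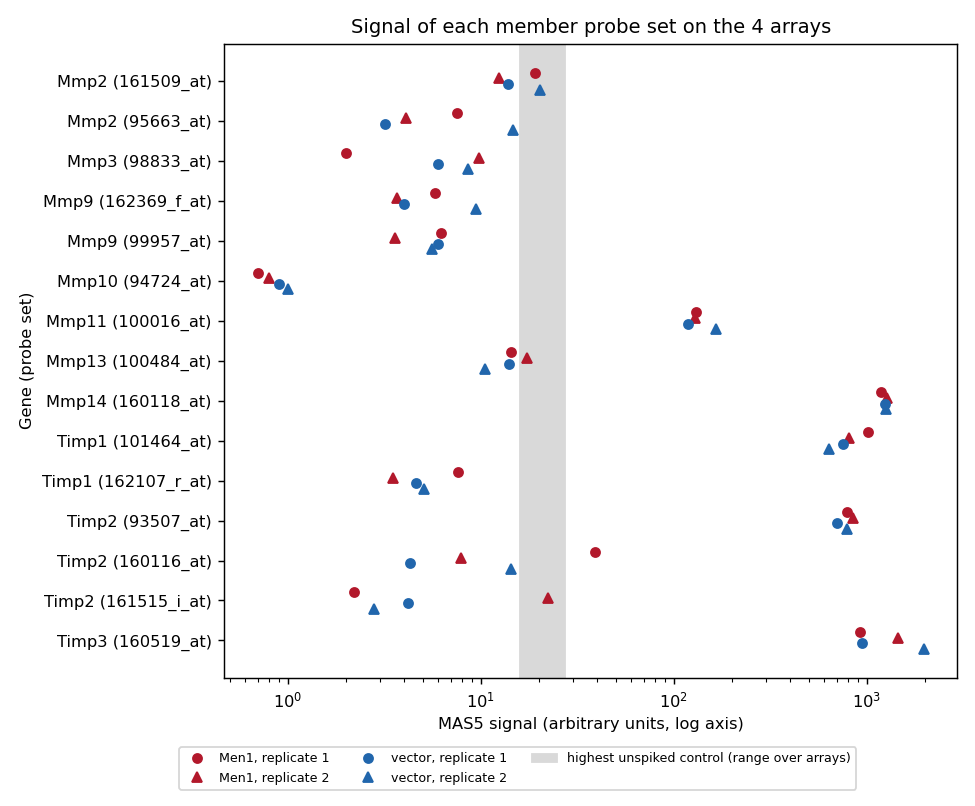
MAS5 signal (log axis) of each of the 15 probe sets on the 4 arrays; red marks Men1, blue vector, circles replicate 1 and triangles replicate 2, and the grey band spans the highest control of the arrays (15.9 to 27.4). Mmp11, Mmp14 and 1 probe set each of Timp1, Timp2 and Timp3 lie to the right of the band on all arrays.

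No member differed between the groups by the test. Differences are Men1 minus vector in log2(signal + 16), a scale that understates the fold of dim probe sets, and were tested with limma over all probe sets, two-sided, with Benjamini-Hochberg adjustment. Of the 15 probe sets 0 had an adjusted p under 0.05, and over all 12422 the share was 0%. An unadjusted p under 0.05 was found for 0 of the 15, against 1.88% of all probe sets. The adjusted p was 1 for every member. With 2 arrays against 2 an exact permutation test cannot give a p below 0.333, so single values were not tested that way.

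The signals of Timp1 were the members' clearest case of groups that did not overlap. Timp1 encodes the secreted inhibitor TIMP1, which blocks most soluble metalloproteinases. Probe set 101464_at read 1011 and 806.5 with Men1 against 750.8 and 633.3 with vector. Both Men1 arrays were above both vector arrays. The means were 909 ± 145 and 692 ± 83.1 (SD, n = 2 each). The log2 difference was 0.38 with a standard error (SE) of 0.21 and a 95% interval of -0.17 to 0.93, and it did not pass (limma unadjusted p = 0.132). Without Men1 replicate 1 the difference was 0.22, and without vector replicate 2 it was 0.26. It was 0.42 between the arrays numbered 1 and 0.34 between those numbered 2. The arrays of 1 group differed from each other by nearly as much, 0.32 within Men1 and 0.24 within vector, with replicate 1 the higher in both. In size the Timp1 difference stood at percentile 90.0 of all probe sets. The other Timp1 probe set, 162107_r_at, was at control level in both groups, with signals of 7.6, 3.5, 4.6 and 5.1 (here and below in the order Men1 1, Men1 2, vector 1, vector 2).

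Timp2 encodes the inhibitor that also takes part in the activation of the MMP2 precursor. Its bright probe set, 93507_at, read 788.4 and 842.7 with Men1 against 696.1 and 783.4 with vector. The groups did not overlap, but the lower Men1 array and the higher vector array were close. Means were 816 ± 38.4 and 739.75 ± 61.7 (SD, n = 2 each), and the log2 difference was 0.14 (SE 0.18, 95% interval -0.32 to 0.60). Another Timp2 probe set, 160116_at, read 39.0, 7.9, 4.3 and 14.4. Only Men1 replicate 1 exceeded its highest control, and the groups overlapped. Vector was at control level there, and Men1 replicate 2 was also below its control, so no bound on a fold is given. The log2 difference was 0.55 (SE 0.46, 95% interval -0.65 to 1.74). The third, 161515_i_at, read 2.2, 22.2, 4.2 and 2.8, all at control level. Its value on Men1 replicate 2 stood far above the other 3 arrays and still below the highest control of 27.4.

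Timp3 encodes an inhibitor that stays bound to the matrix and also blocks some ADAM proteases. Its probe set 160519_at read 915.4 and 1453 with Men1 against 945.3 and 1975 with vector. The arrays numbered 2 were high in both groups, and the groups overlapped. The means of 1184 ± 380 and 1460 ± 728 (SD, n = 2 each) gave a log2 difference of -0.24 (SE 0.43, 95% interval -1.36 to 0.87). Within Men1, replicate 1 minus replicate 2 was -0.66, and within vector it was -1.05. Timp3 therefore varied more between arrays of 1 group than between groups. Without vector replicate 2 its difference was 0.28, opposite in sign.

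**Figure D2:**
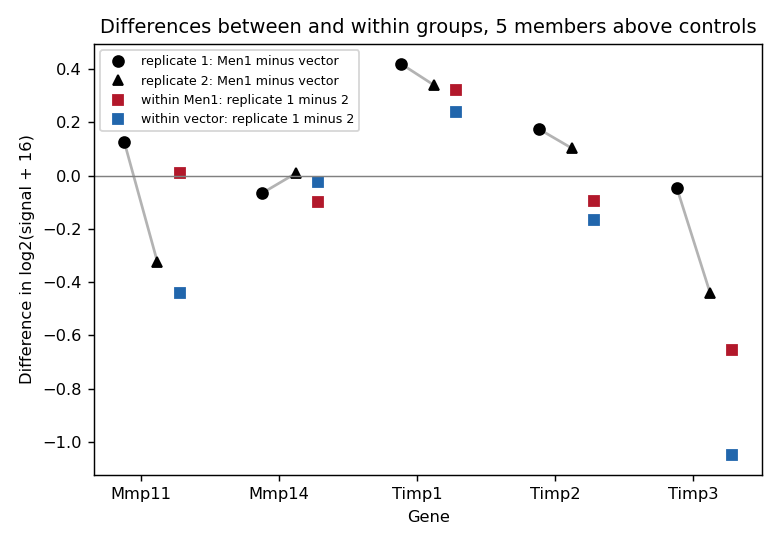
Differences in log2(signal + 16) for the 5 members above controls: black points are Men1 minus vector between arrays of the same number, and red and blue squares are replicate 1 minus replicate 2 within each group. Timp1 was higher with Men1 in both numbers (0.42 and 0.34), and the squares of Timp3 (-0.66 and -1.05) lie farther from 0 than its black points.

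Mmp14 encodes the membrane-bound protease that cleaves collagen at the cell surface. Probe set 160118_at read 1181 and 1265 with Men1 against 1236 and 1257 with vector. These 4 signals were close, and both vector arrays fell between the Men1 arrays. The means were 1223 ± 59.0 and 1247 ± 14.7 (SD, n = 2 each). The log2 difference of -0.03 (SE 0.17) had a 95% interval of -0.47 to 0.41, which covers folds from 0.72 to 1.33 on this scale. Changes within this range could not be told from none with this number of arrays.

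Mmp11 encodes stromelysin-3, a stromal enzyme that is activated inside the cell by furin. Probe set 100016_at read 129.9 and 128.9 with Men1, against vector values of 117.7 and 165.6. The Men1 arrays were nearly the same, and the vector arrays lay on either side of them. The log2 difference was -0.10 (SE 0.22, 95% interval -0.67 to 0.47). Without vector replicate 2, the highest array, it was 0.12.

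Mmp2 encodes gelatinase A, the enzyme whose precursor MMP14 and TIMP2 help to activate. Probe set 161509_at read 19.1, 12.4, 13.8 and 20.3, and probe set 95663_at read 7.5, 4.1, 3.2 and 14.6. Of these 8 signals 1 exceeded its highest control, 20.3 against 20.0 on vector replicate 2. The groups overlapped for both probe sets, and neither gave a bound on a fold. Thus Mmp14 and Timp2 were read clearly in these cells, whereas Mmp2 was read at or next to the level of the controls.

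Mmp9 encodes gelatinase B, made in quantity by macrophages and neutrophils. Its probe sets read 6.2, 3.6, 6.0 and 5.6 (99957_at) and 5.8, 3.7, 4.0 and 9.4 (162369_f_at). All 8 signals were at control level. Of 10 measured macrophage and neutrophil markers 5 were above the highest control on no array, among them the leukocyte marker Ptprc at 2.5, 3.7, 1.2 and 3.4. Another 4 were above it on all arrays, Cd14 (218.3 to 257.8), Elane (47.1 to 97.9), Csf1r (48.4 to 71.3) and Cd68 (39.8 to 56.7). Ly6g, a neutrophil surface protein, had an unadjusted p under 0.05 (limma, 0.0447, adjusted p = 1), but its signals of 5.3, 6.8, 15.2 and 13.6 were all at control level. The summed signal of this list was 489.7 and 506.8 with Men1 and 410.8 and 546.3 with vector.

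Mmp3 and Mmp10 encode stromelysins, which cut proteoglycans and activate other precursors, and Mmp13 encodes the main interstitial collagenase of rodents. Mmp3 (98833_at) read 2.0, 9.8, 6.0 and 8.6, and Mmp10 (94724_at) read 0.7, 0.8, 0.9 and 1.0. Mmp13 (100484_at) read 14.3, 17.4, 14.0 and 10.5. All 12 signals were at control level. Groups did not overlap for Mmp10 (lower with Men1) and Mmp13 (higher with Men1), but values below the controls have no order, and no fold is given. The 3 promoters with both motifs shown above are those of these 3 genes.

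The same held for most probe sets of the neighbouring genes. In RefSeq gene order, 10 Mmp genes follow each other on chromosome 9 with no other protein-coding gene between them. Of these, 6 were measured, by 7 probe sets, which include those of Mmp13, Mmp3 and Mmp10 given above. Of the 7, 6 were above the highest control on no array, as were 25.5% of all probe sets. Mmp8, neutrophil collagenase, read 7.7, 4.7, 4.0 and 3.5, and Mmp7, matrilysin, read 1.8, 2.3, 1.6 and 4.8. Mmp12, macrophage elastase, gave the exception. Its probe set 95339_r_at read 20.6, 23.8, 15.6 and 28.4, above the control on vector replicate 2 alone, and its other probe set, 95338_s_at, was at control level throughout.

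**Figure D3:**
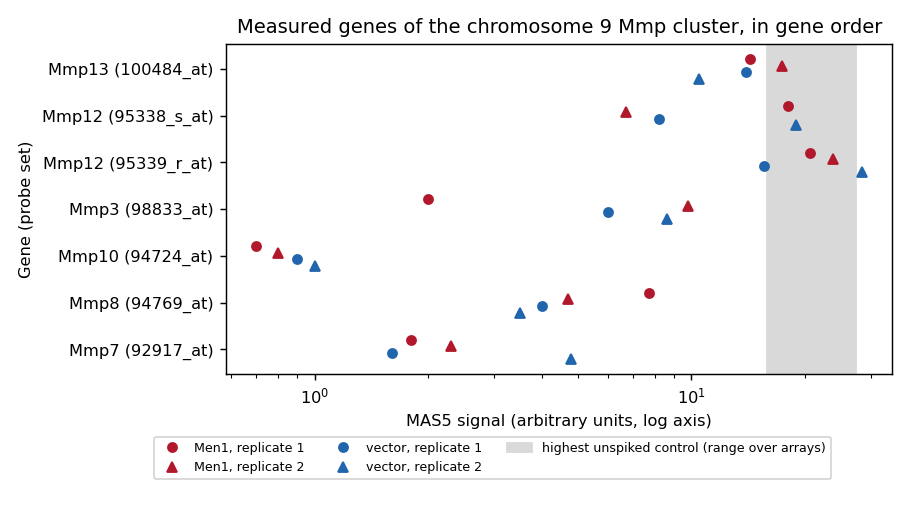
MAS5 signal (log axis) of the 7 probe sets for the 6 measured genes of the chromosome 9 Mmp cluster, in gene order; symbols and band as for the plot of all members. Signals ran from 0.7 to 28.4, and 1 of them, Mmp12 on vector replicate 2 (28.4), exceeded the highest control of its own array.

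A control-level signal does not show that a gene was silent. Timp1 and Timp2 each had a probe set far above the controls on all arrays, while their other 3 probe sets read 2.2 to 39.0. Of 12 fibroblast markers 7 were above the highest control on all arrays, including Col1a1, the main chain of type I collagen, at 7619, 6176, 6057 and 7092. Vim, the intermediate filament of fibroblasts, read only 33.0, 28.8, 24.2 and 37.5. Thy1, a fibroblast surface protein, was at control level in both groups (4.2 to 14.3).

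Groups did not overlap for 4 of the 15 probe sets, 3 higher and 1 lower with Men1, where the share over all probe sets was 22.1%, with 10.4% higher and 11.7% lower. Among the 5 members above controls it was 2, Timp1 and Timp2, both higher. Among the 7217 probe sets above controls on all arrays the share was 22% in either direction, and 11% were higher. The median difference of the 15 was -0.03, and that of all probe sets was -0.01. In fitted sign, 6 of the 15 were higher and 9 lower. The median absolute difference was 0.12 for members and 0.13 for all probe sets. These counts are descriptions, and several probe sets read the same gene.

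**Figure D4:**
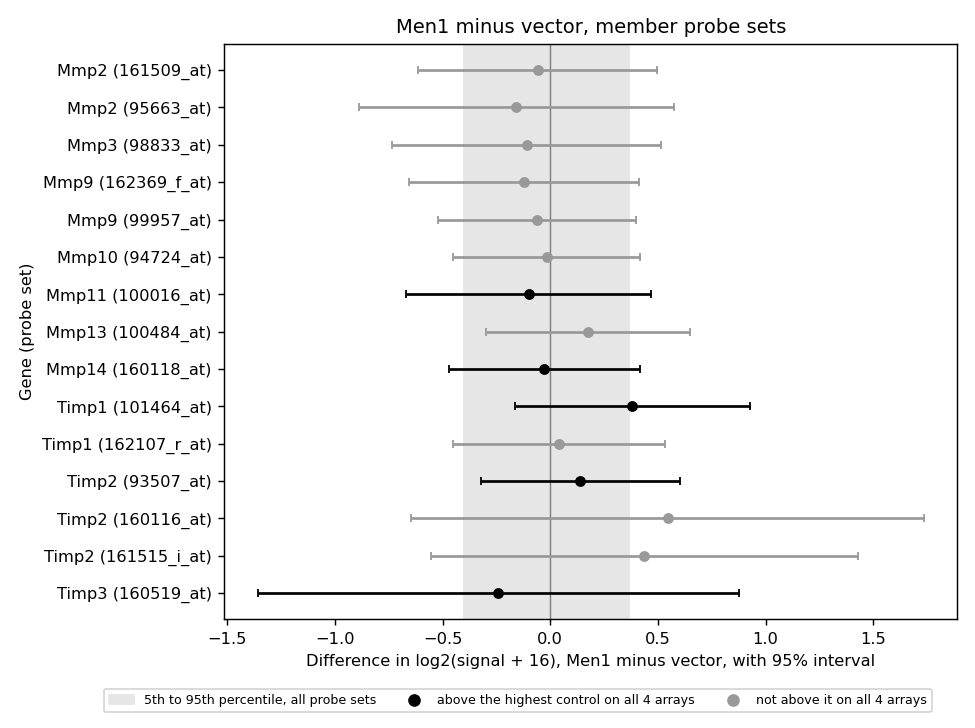
Difference in log2(signal + 16), Men1 minus vector, with 95% interval for each probe set; black marks those above controls on all 4 arrays, and the grey band spans the 5th to 95th percentile of all probe sets (-0.40 to 0.37). Every interval includes 0, and among the black points Timp1 (0.38) lies just above the band. Among the grey points, Timp2 160116_at (0.55) and Timp2 161515_i_at (0.44) lie above it.

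Other metalloproteinases and TIMPs outside the 10 members were measured for 6 genes, and 0 passed the limma threshold. Mmp17, a membrane-anchored enzyme, was the single one above controls on all arrays, reading 49.8, 39.9, 47.7 and 44.6, at a log2 difference of -0.03 (SE 0.19). Mmp16, a membrane-bound relative of Mmp14, read 5.7, 7.8, 21.8 and 6.1 and Mmp24 1.5 to 3.2. Only vector replicate 1 of Mmp16 exceeded its control.

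Of 9 measured ADAM and ADAMTS proteases, relatives that shed membrane proteins or cut proteoglycans, 0 passed, 6 were higher and 3 lower in fitted sign, and the median was 0.17. Adam12 read 195.3, 146.5, 209.7 and 68.0, a log2 difference of 0.43 (SE 0.50) with overlapping groups. Adam8 read 10.5, 18.2, 7.4 and 11.6, at control level in both groups. Adam17, the tumour necrosis factor sheddase, read 8.2, 20.7, 21.9 and 20.1, at control level with Men1. The highest controls were 25.9 and 27.4 on the Men1 arrays and 15.9 and 20.0 on the vector arrays. Adam15 differed by -0.20 (SE 0.29). Groups overlapped for all 9, whereas 22.1% of all probe sets did not overlap.

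Among 17 measured activators, inhibitors and receptors of the metalloproteinases, 0 passed after adjustment. An unadjusted p under 0.05 was found for 2, in opposite directions, against 1.88% of all probe sets. Reck, a membrane-anchored inhibitor of metalloproteinases, read 30.5 and 34.5 with Men1 against 14.9 and 20.8 with vector. All Men1 signals were above the vector signals, but 1 vector array was below its control. The log2 difference was 0.52 (SE 0.19, limma unadjusted p = 0.041, adjusted p = 1). Plat, tissue plasminogen activator, was lower, with 377 and 425.7 against 600.4 and 548.5 (log2 difference -0.50, SE 0.18, limma unadjusted p = 0.0404, adjusted p = 1). Furin, which cuts the propeptides of MMP11 and MMP14, read 1047 and 912.5 against 878.1 and 696.4, higher by 0.32 on the log2 scale (SE 0.21). Cd44, a hyaluronan receptor, differed by 0.35 (SE 0.27). The list had a median of 0.10, and groups did not overlap for 4 of its 17 genes, against 22.1% of all probe sets.

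Of 19 measured transcription factors known to act on metalloproteinase promoters, 0 passed and 0 had an unadjusted p under 0.05. In fitted sign 13 were higher with Men1 and 6 lower, and the median was 0.21, against -0.01 over all probe sets. Groups did not overlap for 11, of which 9 were higher. Over all probe sets 22.1% did not overlap, and 10.4% did so with Men1 higher. The corresponding shares among probe sets above controls on all arrays were 22% and 11%. The list was chosen with earlier results of these data known. Cebpb read 529.9 and 496.4 against 384.4 and 362.9 (log2 difference 0.44, SE 0.17), and Sp1, which binds GC boxes, 323.3 and 396.7 against 239.5 and 262.7 (0.49, SE 0.19). Snai1 and Ets2 differed by 0.41 (SE 0.20) and 0.37 (SE 0.20). Of the 7 AP-1 genes of the list, Fosl1 differed by 0.36 (SE 0.22), Junb by 0.26 (SE 0.17), Jun by 0.19 (SE 0.29), Jund, whose protein binds menin, by -0.10 (SE 0.28), and Fosl2 by -0.32 (SE 0.26). Fos differed by 0.53 (SE 0.40) and Fosb by -0.15 (SE 0.18). Among these 7, groups did not overlap for Fosl1 and Junb, higher with Men1, and for Fosb, lower with Men1.

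Of 22 measured matrix substrates 0 passed, with 13 higher, 9 lower and a median of 0.09. Groups did not overlap for 3, all lower with Men1, where 22.1% of all probe sets did not overlap and 11.7% were lower. Nid1, a basement membrane protein, read 68.8 and 56.7 against 91.1 and 78.1 (log2 difference -0.35, SE 0.19), and Sparc, a collagen-binding protein, 2156 and 2282 against 2598 and 2867 (-0.30, SE 0.18). Acan, the cartilage proteoglycan, was at control level with Men1 (4.1 and 3.2), and 1 of its vector signals of 5.0 and 27.8 exceeded the control. Eln, elastin, differed by 0.57 (SE 0.36) with overlapping groups. For the collagen chains Col1a1, Col3a1 and Col4a1, differences were 0.07, -0.63 (SE 0.48) and 0.27 (SE 0.32), and their groups overlapped.

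**Figure D5:**
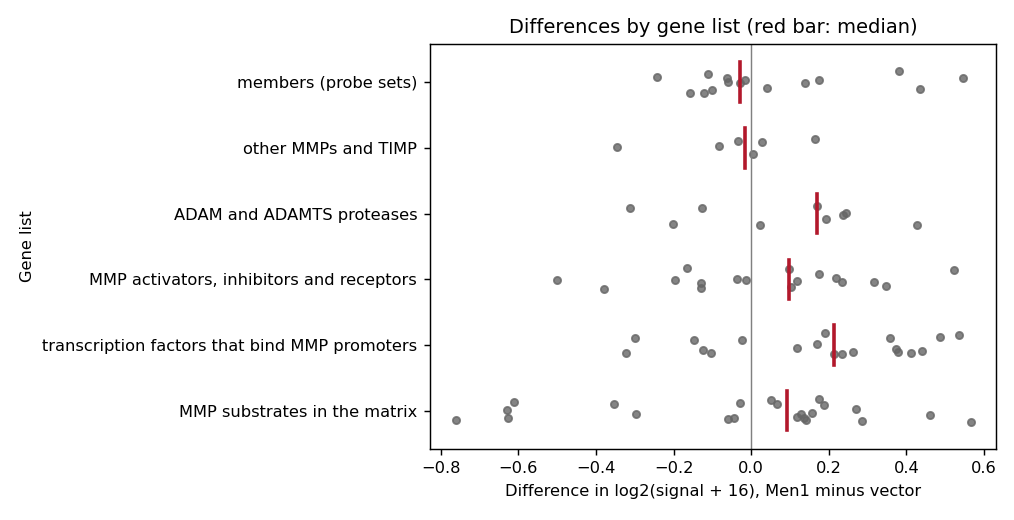
Difference in log2(signal + 16), Men1 minus vector, for the 15 member probe sets and for the genes of 5 related lists, each gene by its brightest probe set; red bars are medians. Medians were -0.03 for members, -0.01, 0.17, 0.10, 0.21 and 0.09 for the lists from top to bottom, and no point passed the test.

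Markers of other cell types were low or mixed. Of 7 epithelial markers 4, and of 6 endothelial markers 4, were above the highest control on no array, among them Epcam (2.0 to 7.5) and Cdh5 (1.5 to 4.6). Of the other epithelial markers, Krt19 (67.2 to 146.5) and Cdh1 (93.7 to 165.2) were above controls on all arrays. The endothelial marker Pecam1 (23.0 to 49.5) was above them on all arrays as well. Of 5 measured bone and cartilage markers 0 were above controls on all arrays, and summed signals were 121.6 and 101.4 with Men1 and 81.3 and 187.3 with vector. Of 7 skeletal muscle markers, 3 were above controls on all arrays and 6 were lower with Men1 in fitted sign, with summed signals of 311.5 and 262.5 against 412.9 and 384.8. Myog, the muscle transcription factor myogenin, and Tnni1, a troponin subunit, had an unadjusted p under 0.05 (limma, 0.00734 and 0.0274, adjusted p = 1 for both). Myog read 23.7, 28.1, 68.1 and 53.3, and Tnni1 read 61.4, 74.5, 111.9 and 105.4, so both vector arrays were above both Men1 arrays for each gene. Over all probe sets 1.88% had an unadjusted p under 0.05. Groups did not overlap for 22.1%, with 11.7% lower with Men1. Myod1, another muscle transcription factor above controls on all arrays, read 80.2, 97.7, 78.9 and 109.8. Its log2 difference was -0.06 (SE 0.23), and its groups overlapped. Summed signals of fibroblast markers were 9188 and 7913 with Men1 and 7464 and 9428 with vector. The part of these lists in the values of the members was not tested, and in bulk RNA fewer cells of a type and less RNA per cell cannot be told apart.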

How the data were processed

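The values table of the series holds 1 column for each of 4 arrays. Per the submitters' processing notes, the authors made the linear intensity of each probe set with Affymetrix Expression Console and MAS5; versions and the scaling target are not given in the sources used here. After such scaling, total RNA per cell cannot be compared. No depth exists for arrays, and their number limits the precision. Per the labels' protocols, poly(T) and random primers were both used, and which stretch of each transcript was labelled is not known here.

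The 66 control probe sets were left out of the fit. All other 12422 probe sets were fitted as log2(signal + 16) in limma 3.58.1 (lmFit, eBayes; R version 4.3.3), Men1 minus vector, with 2 residual and 2.87 prior degrees of freedom and Benjamini-Hochberg adjustment at 0.05. The fit was run on simulated data with equal noise for every probe set and changes placed in bright probe sets only. That run checked the code and does not show the power of the test on these arrays. Genes were named from the platform annotation, where 10833 probe sets had 1 symbol and 396 several, none of the latter holding a member. Lists used the brightest probe set of each gene. Named genes were all members, up to 4 of each pathway list by smallest unadjusted p, and any at an unadjusted p under 0.05, marker lists included; further list and marker genes were chosen after their values were seen. Members and lists were chosen with earlier results of these data known. Alternatives were other pseudocounts, quantile normalization, a filter on dim probe sets, a replicate block, a variance trend and leaving out each array.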

Additional observations from a re-analysis of the deposited data

How the results depend on the processing

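No probe set passed the limma threshold, among the members or over all, in any alternative run. The number at an unadjusted p under 0.05 over all probe sets was 233 as reported, 67 of 6489 with a mean signal of at least 50, and 121 to 1031 without single arrays (1031 without vector replicate 1, 559 without vector replicate 2, 131 without Men1 replicate 2). Among the members it was 0, and 1 without either Men1 array, a dim Timp2 probe set each time. The median member difference was -0.11 with a pseudocount of 1, -0.02 with 64 and -0.04 with quantile normalization, and -0.04 to 0.08 without single arrays. Members higher with Men1 in fitted sign were 6 of 15, 2 of the 5 with a mean signal of at least 50, and 6 to 11 of 15 without single arrays, the last without vector replicate 2. Timp1 (0.22 to 0.54) and the bright Timp2 probe set (0.06 to 0.22) stayed above 0 without single arrays, whereas Mmp14 (-0.077 to 0.020), Mmp11 (-0.32 to 0.12), Timp3 (-0.77 to 0.28), Mmp2 161509_at (-0.21 to 0.094) and Timp2 160116_at (-0.056 to 1.15) changed sign; the cause was not tested. A lone array was assumed to vary like the others. With the replicate number as a block, 0 probe sets passed and 297 had an unadjusted p under 0.05. Deviations of same-numbered arrays correlated at 0.26 across probe sets, and the 2 pairs are too few to show that the numbers pair the samples.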
